A study of Mus musculus with 8 samples.

Results

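The subject is a set of 10 enzyme genes that break down threonine, glycine and choline: Tdh and Gcat of the threonine route, Gldc, Amt, Gcsh and Dld of the glycine cleavage system, and Chdh, Aldh7a1, Dmgdh and Sardh of the choline route. They were found by their gene names among the 48440 genes of the count table, and all 10 were present. The set was put together with measured values in view: Dmgdh and Tdh had already stood out in the comparison of CHIR99021 with DMSO in parental cells. Values of that comparison are therefore given here as a description, without p-values for the 10 genes. The same holds for Tdh and Dmgdh wherever the parental libraries with CHIR99021 enter, that is, between the lines with CHIR99021 and in the difference of the 2 responses. For the other genes of the set, p-values are given in these 2 comparisons. Both use the parental libraries with CHIR99021, which also enter the comparison the set was chosen on, so these p-values are not independent of that choice.

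Polyadenylated RNA was sequenced from 4 groups of mouse embryonic stem cells, with 2 libraries each. They were β-catenin knock-out cells (CTNNB1-/-) with CHIR99021, the same cells with DMSO, parental cells (CTNNB1+/+) with CHIR99021 and parental cells with DMSO. CHIR99021, an inhibitor of the kinase GSK3, was used at 3 μM and its vehicle DMSO at 0.3 μl/ml, each for 72 hours. All cells were of the 129/Ola background and were grown feeder-free on gelatin in medium with serum. There was 1 knock-out line and 1 parental line, so genotype and line cannot be told apart, and how the knock-out was made is not given in the sources used here. Whether the 2 libraries of a group were separate cultures is not in the labels, and p-values here rest on the scatter of library pairs that may differ only technically.

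Threonine dehydrogenase, the product of Tdh, oxidises threonine in mitochondria, and the Gcat enzyme splits the product into glycine and acetyl-CoA. The glycine cleavage system then takes glycine apart and passes a carbon unit to folate, and mouse embryonic stem cells are known for very high Tdh and for depending on threonine. Choline is oxidised to betaine, which gives a methyl group to homocysteine and leaves dimethylglycine; Dmgdh and Sardh remove the remaining methyl groups in 2 steps, ending in glycine, and hand their electrons to the electron transfer flavoprotein.

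Library totals were 23650572 to 27680649 estimated counts. The unit of level is CPM, in which the estimated counts of a gene are divided by the scaled total of its library. Ctnnb1, the gene of β-catenin, was at 9.05 ± 0.509 CPM in knock-out cells with CHIR99021 and 9.34 ± 1.94 CPM in knock-out cells with DMSO, against 828 ± 21.3 CPM in parental cells with CHIR99021 and 896 ± 12.8 CPM in parental cells with DMSO (mean ± SD, n = 2 each, as throughout). The 5 embryonic stem cell markers were Pou5f1, Nanog, Sox2, Zfp42 and Esrrb. They summed to 3323 to 3369 CPM in knock-out cells with CHIR99021 and 3509 to 3677 CPM in knock-out cells with DMSO. In parental cells the sums were 3473 to 3508 CPM with CHIR99021 and 3819 to 3861 CPM with DMSO. A gene is called changed when the adjusted p of edgeR's quasi-likelihood test (Benjamini-Hochberg over the 17739 genes tested) is under 0.05. Of the 10 genes, 8 passed the filter on low counts and were tested; Sardh and Chdh did not.

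The sequence between Dmgdh and its neighbour Bhmt2 is shown for 2 reasons. Both genes were highest in parental cells with CHIR99021, and they are transcribed away from each other from annotated starts only 130 bases apart. It is chr13:93674283-93674452, plus strand, GRCm38.p6, from RefSeq; the capitals are the 130 bases between the annotated starts, with 20 bases of Bhmt2 before them and 20 bases of Dmgdh after them.
Dmgdh and Bhmt2: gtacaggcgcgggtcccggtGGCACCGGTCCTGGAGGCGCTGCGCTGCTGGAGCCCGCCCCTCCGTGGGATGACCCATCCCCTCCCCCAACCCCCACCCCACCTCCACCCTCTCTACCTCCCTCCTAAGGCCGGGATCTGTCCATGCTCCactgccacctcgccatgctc
The 300-base promoter window of Dmgdh (250 bases before its start and 50 after) had 68.0% G and C. It does not hold CTTTGA, the core letters bound by the TCF and LEF partners of β-catenin, on either strand. Among the 8 genes of the set with such a window in the RefSeq table, CTTTGA was present in 1, Amt, against 18.2% of 27025 genes with any window. A match is a run of letters and not a shown binding site.

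Tdh (ENSMUSG00000021953, chromosome 14, 63492347 to 63509092, minus strand) was the most abundant gene of the set for its exon length and was lower in the knock-out under either treatment. It had 661 and 653 CPM in knock-out cells with CHIR99021, 748 and 706 CPM in knock-out cells with DMSO, 1418 and 1421 CPM in parental cells with CHIR99021, and 937 and 929 CPM in parental cells with DMSO. The 4 groups did not overlap: the parental libraries with CHIR99021 were highest, those with DMSO next, and all 4 knock-out libraries lay below both. In bulk RNA, fewer cells of a type and less RNA per cell cannot be told apart, here and in all results that follow.

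In DMSO, Tdh fell to 0.779 times the parental level in the knock-out (log2 fold change -0.36 ± 0.04, SE; edgeR adjusted p = 0.00036). This test shares its parental libraries with the comparison Tdh was chosen on. With CHIR99021 the knock-out was at 0.463 times the parental level (log2 fold change -1.11 ± 0.04, a description). The response to CHIR99021 itself was negative in the knock-out, at a log2 fold change of -0.15 ± 0.04 (edgeR adjusted p = 0.0354), and positive in parental cells, at 0.61 ± 0.04 or 1.52-fold. The fitted responses lay -0.75 ± 0.05 apart on the log2 scale, knock-out minus parental, and most of this is the parental response that Tdh was chosen on. The small fall within the knock-out was called in the fit of all libraries but not in 6 of the 8 fits that left out 1 library. Its adjusted p by edgeR was 0.139 and 0.192 without replicate 1 and 2 of the knock-out with CHIR99021, 0.176 without replicate 1 of the knock-out with DMSO, 0.0507 without replicate 1 of parental cells with CHIR99021, and 0.0699 and 0.0713 without replicate 1 and 2 of parental cells with DMSO. The call of Tdh between the lines with DMSO held in all 8 of these fits.

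Gcat (ENSMUSG00000006378, chromosome 15, 79030874 to 79038353, plus strand), the enzyme that follows Tdh in the threonine route, had the same order of group means. Its libraries held 40.7 and 41.7 CPM in knock-out cells with CHIR99021, 45.7 and 41.2 CPM in knock-out cells with DMSO, 62.1 and 63.8 CPM in parental cells with CHIR99021, and 52.5 and 56.1 CPM in parental cells with DMSO. All 4 knock-out libraries lay below all 4 parental libraries, and the 2 knock-out groups overlapped each other.

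Gcat fell in the knock-out, by 0.61 ± 0.06 on the log2 scale with CHIR99021 (edgeR adjusted p = 3.35e-05) and by 0.32 ± 0.06 with DMSO (edgeR adjusted p = 0.0105). The difference in DMSO lost its call without replicate 2 of the knock-out (edgeR adjusted p = 0.0627) and without replicate 2 of the parental cells with DMSO (edgeR adjusted p = 0.0908). The log2 response to CHIR99021 was -0.08 ± 0.06 in the knock-out (edgeR adjusted p = 0.505) and 0.21 ± 0.06 in parental cells, and the test of their difference gave -0.29 ± 0.08 (edgeR adjusted p = 0.0735). That difference missed the threshold, but passed when genes were kept with 1 read or more (edgeR adjusted p = 0.0276) and without replicate 2 of the knock-out with DMSO (edgeR adjusted p = 0.0298).

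**Figure D1:**
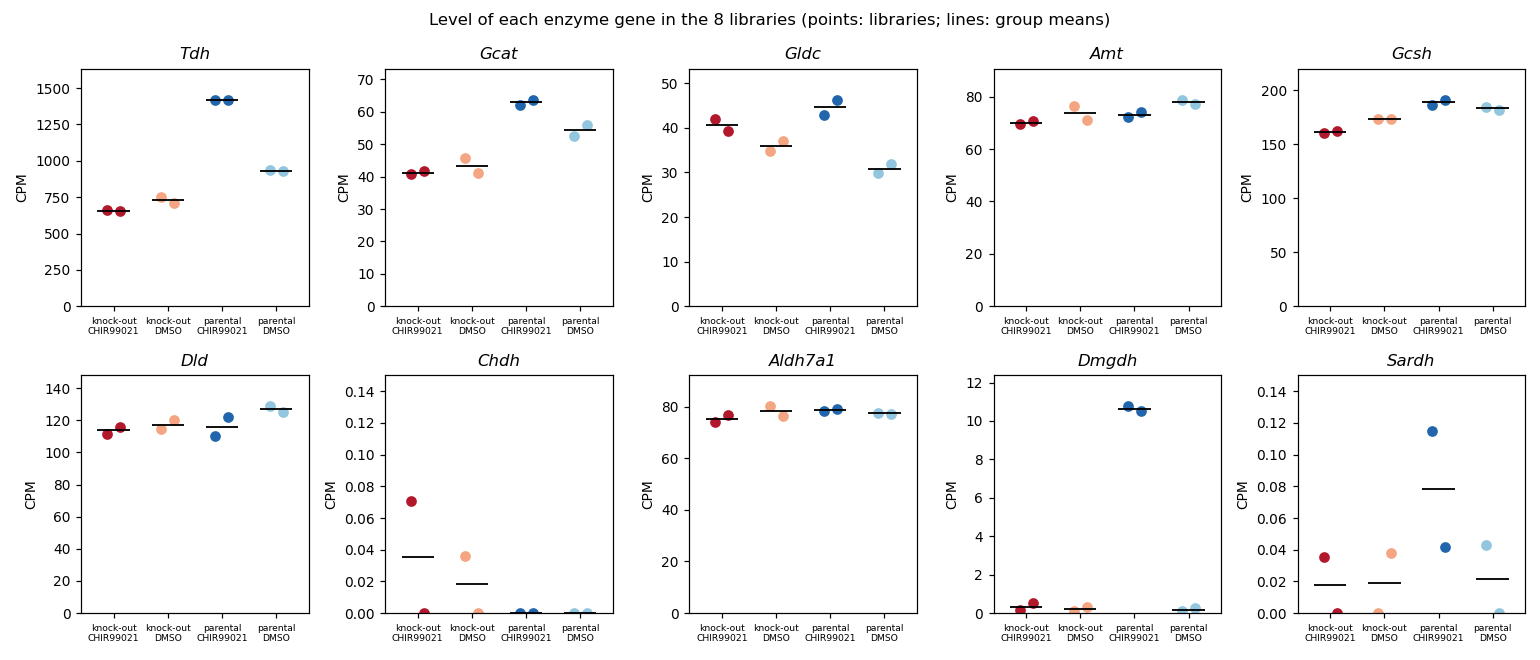
Level in CPM (vertical axis, from 0) of each of the 10 genes in the 8 libraries, by group (horizontal axis); points are libraries and lines are group means. Tdh and Gcat are lowest in the knock-out groups, Dmgdh reaches 10.8 and 10.5 CPM in parental cells with CHIR99021 and at most 0.540 CPM elsewhere, and Chdh and Sardh stay at 0.115 CPM or less.

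Gldc (ENSMUSG00000024827, chromosome 19, 30098447 to 30175429, minus strand) encodes glycine decarboxylase, the first enzyme of glycine cleavage. Its libraries held 42.1 and 39.3 CPM in knock-out cells with CHIR99021, 34.8 and 37.0 CPM in knock-out cells with DMSO, 42.9 and 46.3 CPM in parental cells with CHIR99021, and 29.8 and 31.8 CPM in parental cells with DMSO. Within each line the libraries with CHIR99021 lay above those with DMSO.

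The response of Gldc to CHIR99021 was 0.18 ± 0.06 on the log2 scale in the knock-out, which did not pass (edgeR adjusted p = 0.122), and 0.53 ± 0.07 or 1.45-fold in parental cells. The responses differed by -0.35 ± 0.09 on the log2 scale (edgeR adjusted p = 0.0476), and this difference contains the parental response that the set was chosen on. No fit without 1 library kept the call, and the difference then ran from -0.41 to -0.30. By DESeq2 with all libraries the adjusted p was 0.141. Between the lines, Gldc differed by -0.13 ± 0.06 with CHIR99021 (edgeR adjusted p = 0.162) and by 0.22 ± 0.07 with DMSO (edgeR adjusted p = 0.0797), knock-out minus parental. The value in DMSO passed when genes were kept with 1 read or more (edgeR adjusted p = 0.0424) and when 5 CPM in 2 libraries were asked for (edgeR adjusted p = 0.0484).

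Amt, Gcsh and Dld complete glycine cleavage: the aminomethyltransferase, the lipoate-carrying H protein and the dihydrolipoyl dehydrogenase that also serves the pyruvate and oxoglutarate dehydrogenases. In the fit of all libraries only Gcsh was called, between the lines with CHIR99021, where 23.7% of all genes tested were called. Gcsh (ENSMUSG00000034424, chromosome 8, 116981810 to 116993537, minus strand) had 159.9 and 162.5 CPM in knock-out cells with CHIR99021, 173.4 and 173.2 CPM in knock-out cells with DMSO, 186.2 and 191.2 CPM in parental cells with CHIR99021, and 184.8 and 181.5 CPM in parental cells with DMSO. All 4 knock-out libraries of Gcsh lay below all 4 parental ones. The difference was called with CHIR99021 (log2 fold change -0.23 ± 0.04, edgeR adjusted p = 0.00125) and not with DMSO (-0.08 ± 0.04, edgeR adjusted p = 0.249).

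Amt (ENSMUSG00000032607, chromosome 9, 108296853 to 108302302, plus strand) averaged 70.1 ± 0.904 CPM in knock-out cells with CHIR99021, 73.8 ± 3.88 CPM in knock-out cells with DMSO, 73.2 ± 1.28 CPM in parental cells with CHIR99021 and 78.0 ± 1.28 CPM in parental cells with DMSO. Its log2 fold changes ran from -0.09 to 0.02 over the 5 comparisons and none was called. Dld (ENSMUSG00000020664, chromosome 12, 31331277 to 31351453, minus strand) averaged 114 ± 2.94 CPM, 117 ± 3.98 CPM, 116 ± 8.31 CPM and 127 ± 2.31 CPM in the same order of groups, and its log2 fold changes ran from -0.13 to 0.09 with no call. The lowest, for the response in parental cells, was called with the filter of 1 read or more and without replicate 2 of the parental cells with CHIR99021, where it was -0.20.

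Of the choline route, Chdh (ENSMUSG00000015970, chromosome 14, 30009023 to 30040527, plus strand), the choline dehydrogenase that opens it, was hardly detected. It had 2 and 0 counts in knock-out cells with CHIR99021, 1 and 0 in knock-out cells with DMSO, and 0 in all 4 parental libraries; 3 counts, the limit that a count of 0 allows, are 0.106 to 0.129 CPM in these libraries. Aldh7a1 (ENSMUSG00000053644, chromosome 18, 56509687 to 56572951, minus strand) encodes an aldehyde dehydrogenase that makes betaine from betaine aldehyde and also acts in lysine breakdown. It averaged 75.4 ± 2.0 CPM in knock-out cells with CHIR99021, 78.2 ± 2.65 CPM in knock-out cells with DMSO, 78.7 ± 0.746 CPM in parental cells with CHIR99021 and 77.4 ± 0.252 CPM in parental cells with DMSO. Its log2 fold changes ran from -0.08 to 0.02 in the 5 comparisons, none called. Sardh (ENSMUSG00000009614, chromosome 2, 27188393 to 27248337, minus strand), the sarcosine dehydrogenase, had 1 and 0 counts in knock-out cells with CHIR99021, 0 and 1 in knock-out cells with DMSO, 3 and 1 in parental cells with CHIR99021, and 1 and 0 in parental cells with DMSO. Chdh and Sardh had too few counts for small differences to be detectable at this depth.

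Dmgdh (ENSMUSG00000042102, chromosome 13, 93674433 to 93752833, plus strand), dimethylglycine dehydrogenase, was close to absent from 3 groups and present in the fourth. It had 4 and 14 counts in knock-out cells with CHIR99021, 3 and 8 in knock-out cells with DMSO, 281 and 252 in parental cells with CHIR99021, and 2 and 6 in parental cells with DMSO. The CPM were 0.142 and 0.540, then 0.109 and 0.305, then 10.8 and 10.5, then 0.0858 and 0.249 in that order of groups. The parental libraries with CHIR99021 stood apart from the other 6 libraries, which overlapped one another.

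With CHIR99021, the knock-out held 18 Dmgdh counts and the parental cells 533, a ratio of 0.0313 after scaling (exact 95% interval 0.0184 to 0.0499, counting error only). The fitted log2 fold change was -4.97 ± 0.38, and it was -4.29 and -6.18 without replicate 1 and 2 of the knock-out with CHIR99021, so the spread of the knock-out libraries exceeds the counting interval. Dmgdh passed the filter on low counts through the parental libraries with CHIR99021, the ones it was chosen on. In DMSO the counts were 11 in the knock-out and 8 in parental cells, a ratio of 1.21 (0.444 to 3.47), and the test gave an edgeR adjusted p of 0.89. The ratio of CHIR99021 to DMSO was 1.63 in the knock-out (18 and 11 counts, interval 0.728 to 3.82, edgeR adjusted p = 0.576) and 63.1 in parental cells (533 and 8 counts, interval 31.8 to 147). The fitted response in parental cells was 5.94 ± 0.43 on the log2 scale, and 5.39 and 6.88 without replicate 1 and 2 of the parental cells with DMSO. The fitted responses lay -5.25 ± 0.95 apart, knock-out minus parental, and -6.45 to -4.36 apart when 1 library was left out.

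The step between betaine and dimethylglycine is carried out by the Bhmt enzyme, and its paralog Bhmt2 uses S-methylmethionine as the methyl donor. Both genes lie beside Dmgdh and were looked at after its values were seen, so their p-values below are not independent of that choice. Bhmt2 (chromosome 13, 93655720 to 93674302, minus strand) averaged 0.974 ± 0.178 CPM in knock-out cells with CHIR99021, 0.893 ± 0.0847 CPM in knock-out cells with DMSO, 7.09 ± 0.0982 CPM in parental cells with CHIR99021 and 0.650 ± 0.253 CPM in parental cells with DMSO. As with Dmgdh, the parental libraries with CHIR99021 stood apart and the other 6 lay between 0.472 and 1.10 CPM. Bhmt2 fell in the knock-out with CHIR99021 (log2 fold change -2.85 ± 0.23, edgeR adjusted p = 7.65e-06), rose with CHIR99021 in parental cells (3.43 ± 0.25, edgeR adjusted p = 3.36e-06), and its responses differed by -3.30 ± 0.39 (edgeR adjusted p = 0.000455). These 3 calls held without each library in turn.

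Bhmt (chromosome 13, 93616675 to 93637961, minus strand) had 33 counts in knock-out cells with CHIR99021, 25 in knock-out cells with DMSO, 77 in parental cells with CHIR99021 and 8 in parental cells with DMSO. It rose with CHIR99021 in parental cells (log2 fold change 3.14 ± 0.50, edgeR adjusted p = 0.00108). With CHIR99021 the knock-out lay below the parental cells by -1.32 ± 0.40 on the log2 scale (edgeR adjusted p = 0.0334), a call lost without either replicate of the knock-out with CHIR99021 (edgeR adjusted p = 0.143 and 0.139) and either replicate of the parental cells with CHIR99021 (0.219 and 0.0592). Bhmt and Bhmt2 resemble each other in sequence, and how far reads were shared between them was not tested. The set of genes within 250 kb of Dmgdh was looked at after the values of Dmgdh were seen, so the p-values of Arsb and Jmy below carry the same limit.

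On the other side of Dmgdh, Arsb, a lysosomal sulfatase gene, averaged 0.626 CPM in knock-out cells with CHIR99021, 0.425 CPM in knock-out cells with DMSO, 0.846 CPM in parental cells with CHIR99021 and 0.317 CPM in parental cells with DMSO. Its response in parental cells, 1.40 ± 0.44 on the log2 scale, was called by edgeR (adjusted p = 0.0448) but in none of the 8 fits without 1 library (adjusted p = 0.0523 to 0.233). Jmy, which encodes an actin nucleator, averaged 27.6, 33.4, 29.8 and 32.8 CPM in the same order of groups, and its response in parental cells was -0.14 ± 0.07 (edgeR adjusted p = 0.226). Arsb lies 18797 bases from Dmgdh, and Jmy 174625 bases from it. The Arsb response in parental cells rests on 42 counts with CHIR99021 and 15 with DMSO. Its call was also absent by limma-voom, with a replicate block and with the compared groups alone. Whether distance from Dmgdh plays a part was not tested. In the knock-out Jmy fell with CHIR99021 (log2 fold change -0.27 ± 0.07, edgeR adjusted p = 0.0466). This call was absent by DESeq2 and did not hold in every fit without 1 library.

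**Figure D2:**
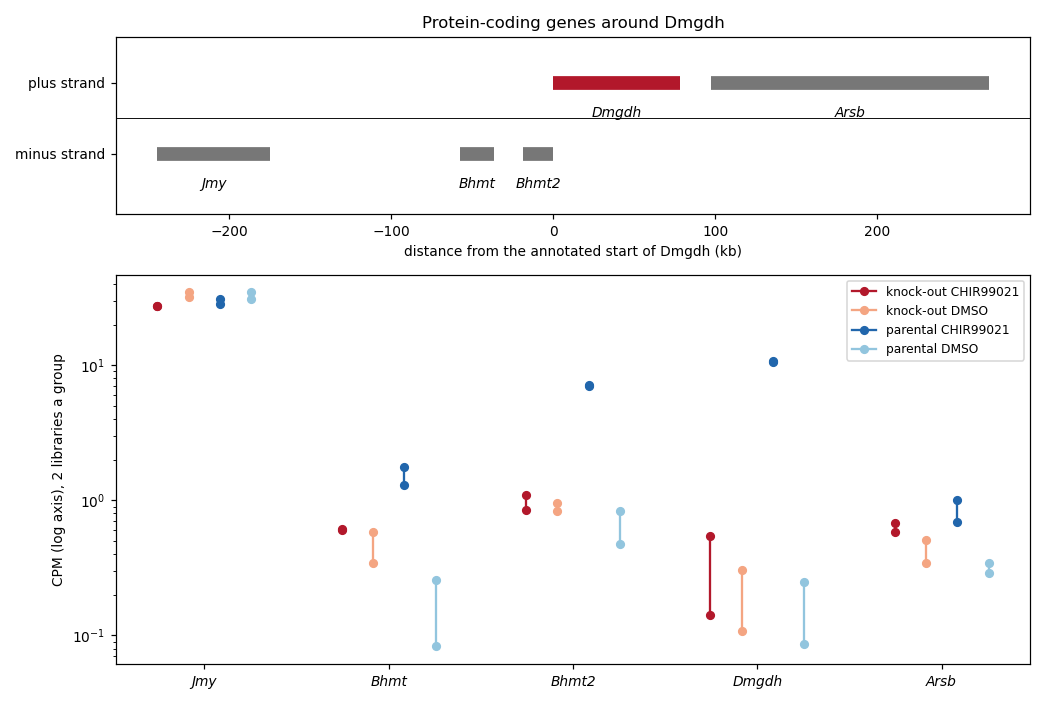
Top, the protein-coding genes within 250 kb of Dmgdh by strand against distance from the annotated start of Dmgdh in kb; bottom, CPM on a log axis, with points for the 2 libraries of a group joined by a line. Dmgdh and Bhmt2 start 130 bases apart on opposite strands, and the parental libraries with CHIR99021 stand above the others for Dmgdh, Bhmt2 and Bhmt.

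Of the primitive streak and mesoderm markers, T, Eomes and Cdx2 were highest in the same libraries as Dmgdh and Bhmt2, while Mixl1 and Mesp1 were not. The 5 markers T, Eomes, Mixl1, Mesp1 and Cdx2, of which 4 were tested, summed to 2.43 to 2.63 CPM in knock-out cells with CHIR99021, 3.05 to 3.55 CPM in knock-out cells with DMSO, 43.8 to 45.1 CPM in parental cells with CHIR99021 and 2.87 to 2.98 CPM in parental cells with DMSO. Eomes averaged 30.4 CPM of this sum in parental cells with CHIR99021, T 11.3 CPM and Cdx2 1.57 CPM. Mixl1 averaged 1.11, 1.23, 1.14 and 0.989 CPM in the same order of groups, and Mesp1 0.0710, 0.111, 0.0400 and 0.0207 CPM. The part of primitive streak or mesoderm cells in the level of Dmgdh was not tested. Dmgdh, Bhmt and Bhmt2 are known as liver genes. Of the 5 hepatocyte markers, Alb, Ttr and Serpina1a were at 0 in all 8 libraries, and the 5 together summed to 4.86 to 5.25 CPM in knock-out cells with CHIR99021, 3.01 to 3.74 CPM in knock-out cells with DMSO, 3.34 to 4.10 CPM in parental cells with CHIR99021 and 3.40 to 3.77 CPM in parental cells with DMSO; their part in these levels was not tested.

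Markers of 3 further cell types were looked at in the same way. The 5 primitive endoderm markers summed to 25.9 to 28.03 CPM in knock-out cells with CHIR99021, 28.6 to 29.4 CPM in knock-out cells with DMSO, 11.2 to 13.0 CPM in parental cells with CHIR99021 and 21.2 to 22.1 CPM in parental cells with DMSO. The 4 neural ectoderm markers summed to 81.7 to 83.5 CPM, 99.3 to 107 CPM, 48.3 to 49.1 CPM and 101 to 103 CPM in that order, and the 5 fibroblast markers to 11.5 to 13.2 CPM, 10.4 to 11.3 CPM, 9.61 to 10.1 CPM and 6.35 to 6.88 CPM. The primitive endoderm and neural sums were lowest where Tdh, Gcat and Dmgdh were highest, and their part in those levels was not tested. Not every primitive endoderm marker followed the sum. Sox7 averaged 4.74 CPM in parental cells with CHIR99021 and 14.1 CPM in parental cells with DMSO. Dab2 averaged 1.72 and 2.04 CPM in these groups, and the libraries of Gata4 overlapped between them. Gata6 averaged 0.759 and 0.467 CPM in the same order, and Sox17 0.137 and 0.0629 CPM, both higher with CHIR99021.

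Counted over the set, the calls were as follows. In the knock-out with CHIR99021 against parental cells with CHIR99021, 4 of the 8 tested genes were called, all lower (Tdh, Gcat, Gcsh and Dmgdh), where 23.7% of all genes tested were called and 12.5% were called lower; libraries did not overlap for 7 of 8, where this held for 62.4% of all genes. In DMSO, 2 were called, both lower (Tdh and Gcat), where 6.75% of all genes were called and 3.62% were called lower; libraries did not overlap for 6 of 8, against 49.6% of all genes. For the response to CHIR99021 in the knock-out, 1 was called (Tdh, lower), where 7.06% of all genes were called and 4.18% were called lower, and 4 of 8 did not overlap, against 52.4% of all genes. The difference between the responses was called for 3 (Tdh, Gldc and Dmgdh, all negative), where 6.13% of all genes were called and 2.91% were called negative; each fit without 1 library called 2. Tdh and Dmgdh were chosen on the parental libraries with CHIR99021, so nothing is read from the counts of the 2 comparisons that use them with knock-out cells.

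In parental cells, the comparison the set was chosen on, 4 of 8 were called higher with CHIR99021 (Tdh, Gcat, Gldc and Dmgdh) and none lower, where 19.4% of all genes were called and 9.10% were called higher, and all 8 did not overlap, against 59.4% of all genes; nothing is read from these counts. The call of Gcat there was absent by DESeq2 and without replicate 1 of the parental cells with DMSO or either replicate of the parental cells with CHIR99021. The median log2 fold change of the 8 genes was -0.18 between the lines with CHIR99021, -0.08 between the lines with DMSO, -0.06 for the response in the knock-out, 0.13 for that in parental cells and -0.22 for the difference of responses, while the median over all genes was 0.00 in each. These comparisons share libraries: the parental libraries with CHIR99021 enter the comparison between lines with CHIR99021, the response in parental cells and the difference of responses. The parental libraries with DMSO likewise enter the comparison between lines with DMSO, the response in parental cells and the difference of responses. The set was chosen on the response in parental cells. Medians that use the parental libraries with CHIR99021 are therefore a description, and nothing is read from them.

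**Figure D3:**
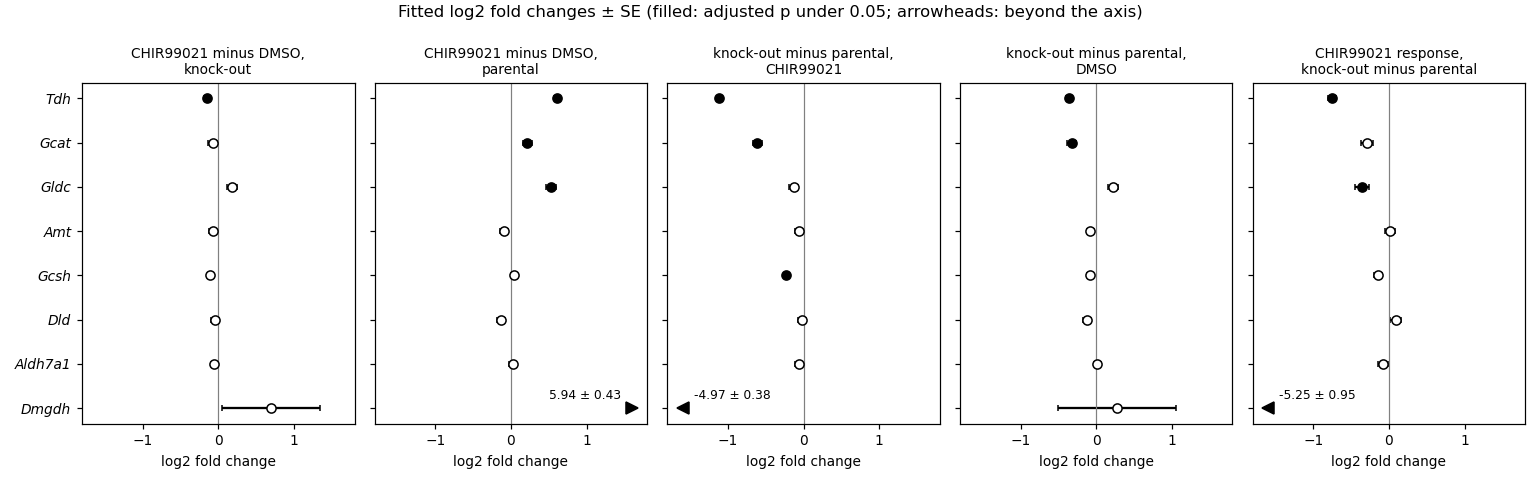
Fitted log2 fold changes (horizontal axes) with SE bars are shown for the 8 tested genes in the 5 comparisons. Filled points are called (edgeR adjusted p under 0.05) and arrowheads mark values beyond the axis. The set was chosen on the response in parental cells, so the marks of that panel are a description. The same holds for Tdh and Dmgdh between the lines with CHIR99021 and in the difference of responses. Tdh and Gcat lie left of 0 in both comparisons of the knock-out with parental cells, and Dmgdh lies at 0.69 ± 0.65 for the response in the knock-out, against 5.94 ± 0.43 for that in parental cells.

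To set levels of different genes side by side, CPM were divided by the annotated exon length. In parental cells with DMSO, Tdh was at 357 CPM per kb, Gcsh at 116, Dld at 34.5, Amt at 32.0, Gcat at 22.8, Aldh7a1 at 14.9, Gldc at 5.06 and Dmgdh at 0.0490 CPM per kb. The order of the genes was the same in all 4 groups. Tdh per kb was 251 ± 2.0 in knock-out cells with CHIR99021, 278 ± 11.3 in knock-out cells with DMSO and 543 ± 0.865 in parental cells with CHIR99021. Dmgdh reached 3.12 ± 0.0471 CPM per kb in parental cells with CHIR99021, still below Gldc at 7.33 ± 0.393 CPM per kb in the same libraries. Dld and Amt did not differ beyond their spread in knock-out cells with DMSO (31.8 ± 1.08 and 30.3 ± 1.59 CPM per kb) or in parental cells with CHIR99021 (31.5 ± 2.26 and 30.04 ± 0.525 CPM per kb); the other neighbours in the order did not overlap in any group. With the longest transcript in place of all exons, Gldc is at 8.18 CPM per kb in parental cells with DMSO.

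**Figure D4:**
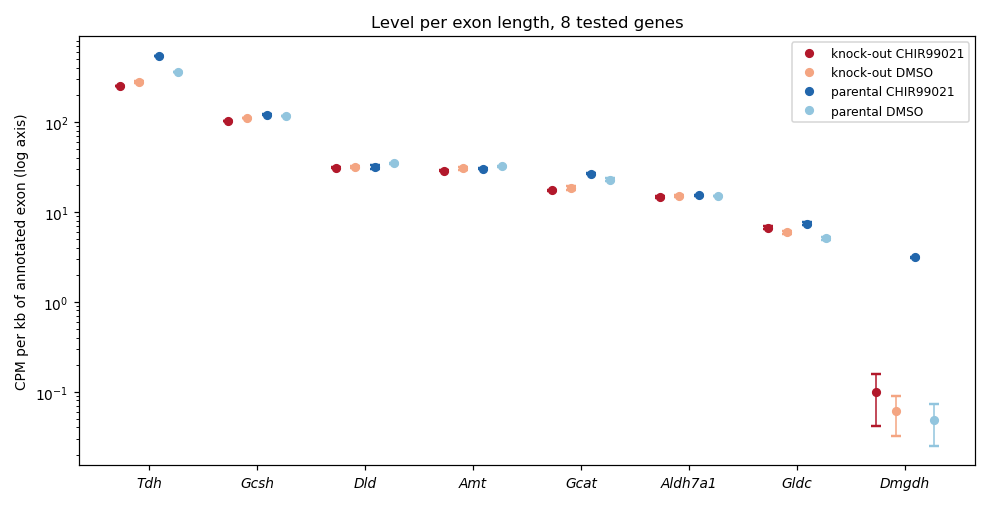
Level of the 8 tested genes in CPM per kb of annotated exon (log axis), with points for group means and bars for the range of the 2 libraries. Tdh is the highest in every group, and Dmgdh is the lowest in every group, at 3.12 CPM per kb in parental cells with CHIR99021.

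Genes on the opposite strand share exon bases with 5 of the 10 genes, and whether counting used strand is not given in the sources used here. Tdh shares 66 bases with Gm17232, which had 2.55 to 6.20 CPM, and Dmgdh shares 215 bases with AW495222, which had at most 0.209 CPM. Aldh7a1 shares 300 bases with Phax, an RNA export adaptor gene at 46.7 to 52.6 CPM. Chdh shares 589 bases with Cacna1d and Sardh 188 bases with Sardhos, and these partners were at no more than 0.471 CPM.

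The genes whose levels followed Tdh most closely over the 8 libraries were found by Pearson's r on log2 CPM among 9874 genes of at least 5 CPM on average. The 8 libraries fall into 4 groups, so r is a description of 4 levels and carries no p. Highest were Nrp2 (r = 0.996), a semaphorin and VEGF co-receptor gene, Snx1 (0.995), an endosomal sorting nexin gene, and Ntn1 (0.993), which encodes netrin. Ntn1 averaged 17.8 CPM in knock-out cells with CHIR99021, 18.8 CPM in knock-out cells with DMSO, 93.0 CPM in parental cells with CHIR99021 and 32.3 CPM in parental cells with DMSO. The most opposite were Chd9 (-0.995), a chromatin remodeller gene, and Slc6a16 (-0.992), a transporter family gene. For Dmgdh the closest were Zfp61 (0.994), Sike1 (0.994) and Prtg (0.988), and the most opposite Cttnbp2nl (-0.992) and Tmem2 (-0.989). Prtg, which encodes the cell surface protein protogenin, averaged 4.07 CPM, 3.71 CPM, 18.15 CPM and 3.64 CPM in the same order of groups.

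Around these enzymes, 122 genes of 9 lists of adjoining metabolic steps were examined, of which 110 were tested. The lists were chosen with earlier results of these data known, so the p-values of their genes may not be independent of that choice. Between the lines with CHIR99021, 11 were called higher and 30 lower in the knock-out, a median log2 fold change of -0.07. The count of 41 fell to 23 without replicate 2 of the knock-out with CHIR99021 and to 27 without replicate 1 of the parental cells with CHIR99021. Between the lines with DMSO, 3 were higher and 10 lower, a count that fell to 2, 3, 6 and 8 without, in turn, replicate 1 and 2 of the parental cells with DMSO and replicate 1 and 2 of the knock-out with DMSO. For the response to CHIR99021, 3 were higher and 5 lower in the knock-out, and 15 higher and 14 lower in parental cells. The count in parental cells fell to 19 without replicate 2 of the parental cells with DMSO. The count of 8 in the knock-out was 4 and 2 without replicate 1 and 2 of the knock-out with CHIR99021, 4 and 5 without replicate 1 and 2 of the knock-out with DMSO, and 5 without either replicate of the parental cells with DMSO. Of all genes tested, 23.7% were called between the lines with CHIR99021 and 12.5% were lower there. The share called was 6.75% between the lines with DMSO and 7.06% for the response in the knock-out. For the response in parental cells it was 19.4%, with 9.10% higher.

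Serine and glycine synthesis genes, which feed the same glycine pool, were lower in the knock-out with CHIR99021 for 4 of 10 tested and higher for none. Over all genes 12.5% were called lower there. Psat1, the phosphoserine aminotransferase, averaged 399 CPM in knock-out cells with CHIR99021 and 462 CPM in parental cells with CHIR99021 (log2 fold change -0.21 ± 0.04, edgeR adjusted p = 0.00135). Shmt1, the cytosolic hydroxymethyltransferase that interconverts serine and glycine, averaged 184 and 214 CPM in the same groups (-0.22 ± 0.04, edgeR adjusted p = 0.00275). With CHIR99021 in parental cells 2 of 10 were called, both higher, where 9.10% of all genes were called higher.

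Folate cycle genes, which take up the carbon unit of glycine cleavage, were lower in the knock-out with CHIR99021 for 7 of 16 tested and higher for 2. The share of all genes called lower was 12.5%. Mthfd2, the mitochondrial methylenetetrahydrofolate dehydrogenase, fell in the knock-out with CHIR99021 by 0.23 ± 0.04 on the log2 scale (edgeR adjusted p = 0.00113) and Aldh1l1, a formyltetrahydrofolate dehydrogenase, by 0.76 ± 0.13 (edgeR adjusted p = 0.00184). With CHIR99021 in parental cells 1 was higher and 2 lower, where 19.4% of all genes were called. The higher gene, Aldh1l1, rose to 7.15 CPM with CHIR99021, against 4.26 CPM with DMSO (0.74 ± 0.13, edgeR adjusted p = 0.00256).

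Of the methionine cycle and transsulfuration genes, 7 of 14 tested were lower and 1 higher in the knock-out with CHIR99021, against 12.5% of all genes called lower. Besides Bhmt2 and Bhmt, the methionine salvage gene Mtap fell by 0.25 ± 0.05 on the log2 scale (edgeR adjusted p = 0.00367) and Apip, of the same salvage route, by 0.37 ± 0.06 (edgeR adjusted p = 0.00161). The gene that was higher is Cth, the cystathionine lyase, at 84.3 CPM in knock-out cells with CHIR99021 and 66.3 CPM in parental cells with CHIR99021 (0.35 ± 0.05, edgeR adjusted p = 0.000529). In parental cells 4 were higher and 2 lower with CHIR99021, where 19.4% of all genes were called and 9.10% were called higher. Mtap rose by 0.34 ± 0.05 (edgeR adjusted p = 0.000653), while Mat2a, the S-adenosylmethionine synthetase, fell by 0.28 ± 0.04 (edgeR adjusted p = 0.000453).

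Choline uptake and use went in mixed directions, with 3 of 13 tested higher and 3 lower in the knock-out with CHIR99021. Over all genes 23.7% were called in either direction. Pipox, a peroxisomal oxidase of sarcosine and pipecolate and so an enzyme on the same substrate as Sardh, averaged 45.4 CPM in knock-out cells with CHIR99021, 45.6 CPM in knock-out cells with DMSO, 25.6 CPM in parental cells with CHIR99021 and 42.5 CPM in parental cells with DMSO. Its lowest level was in parental cells with CHIR99021, the group where Dmgdh was highest. There it fell by 0.73 ± 0.07 on the log2 scale (edgeR adjusted p = 2.2e-05), and its responses differed by 0.73 ± 0.09 (edgeR adjusted p = 0.00088). Pcyt1b, a gene of phosphatidylcholine synthesis, fell with CHIR99021 in the knock-out (-0.47 ± 0.05, edgeR adjusted p = 0.000538) and in parental cells (-0.81 ± 0.05, edgeR adjusted p = 1.14e-06). Slc44a1, a choline transporter gene, averaged 116.5 CPM in knock-out cells with CHIR99021, 96.2 CPM in knock-out cells with DMSO, 146 CPM in parental cells with CHIR99021 and 114 CPM in parental cells with DMSO. It rose with CHIR99021 in parental cells (0.35 ± 0.05, edgeR adjusted p = 0.000225) and was lower in the knock-out with CHIR99021 than in parental cells with CHIR99021 (-0.33 ± 0.04, edgeR adjusted p = 0.000347). In parental cells 3 of 13 were higher and 2 lower with CHIR99021, where 19.4% of all genes were called and 9.10% were called higher.

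Among lipoylation genes and partners of Dld, 5 of 17 tested were lower and 1 higher in the knock-out with CHIR99021. The shares over all genes were 12.5% lower and 23.7% in either direction. Lias, the lipoate synthase on which Gcsh depends, fell by 0.24 ± 0.05 on the log2 scale (edgeR adjusted p = 0.00489). The higher gene was Bckdha, of the branched-chain ketoacid dehydrogenase (0.41 ± 0.05, edgeR adjusted p = 0.000287), which fell with CHIR99021 in the knock-out by 0.57 ± 0.05 (edgeR adjusted p = 0.000324) and in parental cells by 0.80 ± 0.05 (edgeR adjusted p = 1.77e-06). With CHIR99021 in parental cells 3 of 17 were higher and 1 lower, where 19.4% of all genes were called and 9.10% were called higher.

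The genes of electron transfer from flavin dehydrogenases, which take electrons from Dmgdh and Sardh, had 2 of 12 called between the lines with CHIR99021, where 23.7% of all genes were called: 1 higher and 1 lower in the knock-out. With CHIR99021 in parental cells none was higher and 2 were lower, where 19.4% of all genes were called. Etfb, a subunit of the electron transfer flavoprotein, fell in parental cells to 73.9 CPM with CHIR99021, against 91.0 CPM with DMSO (log2 fold change -0.30 ± 0.05, edgeR adjusted p = 0.00207). Ivd, the isovaleryl-CoA dehydrogenase, was lower in the knock-out with CHIR99021 (-0.45 ± 0.05, edgeR adjusted p = 0.000134).

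Lysine breakdown had 2 of 8 called between the lines with CHIR99021, both lower in the knock-out, where 23.7% of all genes were called. With CHIR99021 in parental cells 1 was lower, where 19.4% of all genes were called. Hadh, a fatty acid oxidation enzyme on that list, fell by 0.23 ± 0.04 in the knock-out with CHIR99021 (edgeR adjusted p = 0.00314). Of threonine and small neutral amino acid transport, 1 of 10 was higher and 1 lower in the knock-out with CHIR99021, against 23.7% of all genes called. In parental cells 1 was higher and 3 lower with CHIR99021, against 19.4% of all genes called. Slc38a2, a system A transporter gene, averaged 213 CPM in knock-out cells with CHIR99021, 246 CPM in knock-out cells with DMSO, 174 CPM in parental cells with CHIR99021 and 255 CPM in parental cells with DMSO. It fell in parental cells by 0.55 ± 0.04 (edgeR adjusted p = 4.31e-06), and the responses differed by 0.34 ± 0.06 (edgeR adjusted p = 0.00513). Of the other aldehyde dehydrogenases, 2 of 13 were higher in the knock-out with CHIR99021, among them Aldh5a1 of GABA breakdown (0.43 ± 0.08, edgeR adjusted p = 0.00311). With CHIR99021 in parental cells 1 was higher and 1 lower. Over all genes 23.7% and 19.4% were called in these 2 comparisons.

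**Figure D5:**
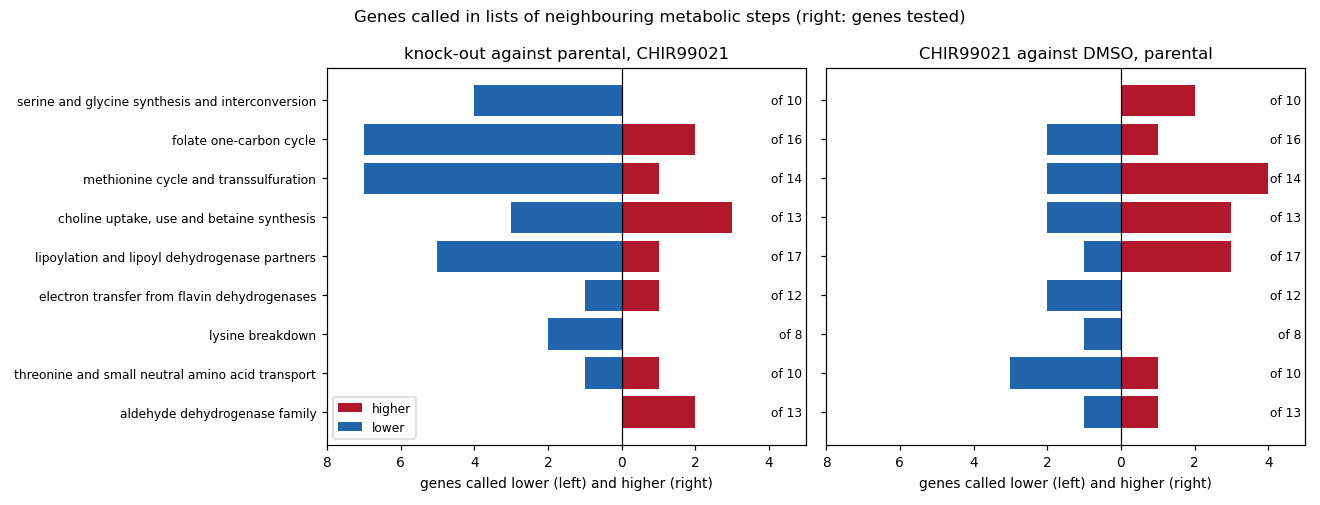
Number of genes called lower (left of 0) and higher (right of 0) in 9 lists of adjoining metabolic steps, for the knock-out against parental cells with CHIR99021 and for CHIR99021 against DMSO in parental cells; the number tested stands at the right. In the first comparison 30 of 110 distinct genes were lower and 11 higher, in the second 14 were lower and 15 higher. Over all genes tested, 23.7% were called in the first comparison and 19.4% in the second.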

How the data were processed

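The authors deposited estimated counts per Ensembl gene from kallisto with build GRCm38.p4, per the submitters' processing notes; libraries came from a stranded mRNA kit, per the labels' protocols. The kallisto version, transcript set, summing to genes and strand setting are not given in the sources used here. In each library 36.9% to 38.4% of the entries were fractional.

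Counts were rounded. Genes were kept with edgeR 4.0.16 filterByExpr (minimum 10 counts, 15 in total), which left 17739 genes with at least 99.905% of each library's counts. After scaling by the trimmed mean of M values, a quasi-likelihood model with a mean for each group was fitted to all 8 libraries (4 residual degrees of freedom). The F test was 2-sided, with p-values adjusted by Benjamini-Hochberg over every gene tested and a threshold of 0.05. The SE of a log2 fold change is its size over the square root of F. CPM use the scaled library sizes. A chi-square comparison of replicates gave 3.26 to 4.85 per degree of freedom, where counting error alone gives about 1. Ratios of low counts have exact binomial 95% intervals, which cover counting error only.

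Positions, exon lengths and neighbours came from GENCODE M21 on GRCm38, promoter windows from RefSeq (GRCm38.p6), found for 8 of the 10 genes. The 10 genes and the gene lists were chosen with earlier results of these data known. The text names all 10 genes, Ctnnb1, list genes among the 4 smallest adjusted p of a list and comparison (other list genes only as values), the 3 highest and 2 lowest correlations with Tdh and with Dmgdh, and the genes within 250 kb of Dmgdh, chosen after its values were seen. One list gene that the rule names is not reported here.

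Alternatives were DESeq2 1.42.0, limma-voom (limma 3.58.1), relative log expression scaling, 2 other filters, the compared groups alone, a replicate block, leaving out each library, and the longest transcript in place of all exons. Where 1 library was left out, its partner was taken to vary as much as libraries of the other groups. The procedure was tested on simulated data.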

Additional observations from a re-analysis of the deposited data

Results flagged for a closer look

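By the interaction term of the edgeR fit, the responses to CHIR99021 in the knock-out and in parental cells were called different for 3 of the 8 tested genes. Over all genes tested, 6.13% were called. For every gene this term contains the parental response, the comparison the set was chosen on, so nothing is read from this count. Tdh and Dmgdh were themselves chosen on that response, so their values are a description. The fitted responses of Tdh lay -0.75 ± 0.05 apart on the log2 scale, knock-out minus parental, with both knock-out libraries with CHIR99021 below those with DMSO and both parental libraries with CHIR99021 above those with DMSO. Those of Dmgdh lay -5.25 ± 0.95 apart, from 18 and 11 counts in the knock-out and 533 and 8 counts in parental cells, and its call was lost without replicate 2 of the knock-out with DMSO. Gldc had a difference of -0.35 ± 0.09 (edgeR adjusted p = 0.0476), which lost its call in all 8 fits without 1 library (edgeR adjusted p = 0.0527 to 0.19) and by DESeq2 (adjusted p = 0.141).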

How the results depend on the processing

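Across the alternatives, 1741 fold changes of single genes kept their direction and side of the threshold, 265 lost a call, 6 gained one and 11 changed sign. The cause of these changes was not tested. Of the 10 genes, the count called stayed at 4 between the lines with CHIR99021 under every alternative run. Leaving out 1 library each gave 3 to 4 called for the response in parental cells, 2 for the difference of responses, 0 to 1 for the response in the knock-out and 1 to 2 between the lines with DMSO. With the compared groups alone, 0 were called by edgeR for the response in the knock-out (3 at an unadjusted p under 0.05; 1 by DESeq2 and 1 by limma-voom). In the fit of all libraries, 23.7% of all genes were called between the lines with CHIR99021, and 6.75% with DMSO. The shares were 7.06% for the response in the knock-out, 19.4% for that in parental cells and 6.13% for the difference. Tdh and Dmgdh were chosen on the parental libraries with CHIR99021, so nothing is read from the counts that use those libraries.

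Of the list genes, leaving out 1 library each gave 23 to 43 called between the lines with CHIR99021, 2 to 12 between the lines with DMSO, 2 to 7 for the response in the knock-out, 19 to 31 for that in parental cells and 3 to 7 for the difference of responses. That difference was called for 8 list genes in all, for 4 by DESeq2 and for 13 when genes with 1 read were kept. The same looser filter gave 15 for the response in the knock-out and 20 between the lines with DMSO; 5 CPM in 2 libraries gave 14 and the compared groups alone 5 for the response in the knock-out.

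Over all genes, 4200 were called between the lines with CHIR99021 and 2709 by DESeq2, with 2678, 2509 and 2586 without replicate 1 or 2 of the knock-out with CHIR99021 or replicate 1 of parental cells with CHIR99021. Between the lines with DMSO 1198 were called, 795 by DESeq2, 2064 with the looser filter, and 357 to 717 without a library of either group. For the response in the knock-out 1252 were called, 2167 with the looser filter, and 308, 328 and 335 without replicate 1 or 2 of the knock-out with CHIR99021 or replicate 1 with DMSO. For that in parental cells 3441 were called, 2205 by DESeq2, and 2057, 2087 and 2249 without replicate 1 with CHIR99021 or replicate 1 or 2 with DMSO. The difference of responses was called for 1087, 1990 with the looser filter, and 605 to 700 without each of 4 libraries.

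With the longest transcript, levels in parental cells with DMSO were 496 CPM per kb for Tdh, 126.9 for Gcsh, 49.9 for Dld, 37.5 for Amt, 18.7 for Aldh7a1 and 8.18 for Gldc. All 11 sign changes were in uncalled log2 fold changes when 1 library was left out. For the response in the knock-out the values ran from -0.073 to 0.30 for Bhmt2, from -0.51 to 1.58 for Dmgdh and from -0.14 to 0.00011 for Gcat. Between the lines with DMSO they ran from -0.020 to 0.050 for Aldh7a1, from -0.048 to 0.11 for Jmy and from -0.61 to 1.21 for Dmgdh. Between the lines with CHIR99021 they ran from -0.098 to 0.046 for Dld, and for the difference of responses from -0.036 to 0.071 for Amt.

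Replicate numbers did not pair the samples: deviations of same-numbered libraries from their group means correlated at -0.056 to 0.104. With a replicate block the count called among the 10 genes was unchanged in every comparison, and all genes called were 4296 between the lines with CHIR99021, 1225 with DMSO, 1313 for the response in the knock-out, 3434 for that in parental cells and 1135 for the difference. At these depths Chdh, Sardh and, outside parental cells with CHIR99021, Dmgdh had too few counts for small differences to be detected.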
